A study of Homo sapiens with 6 samples.

Results

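The genes described here encode laminin chains and the integrin subunits that bind laminin: LAMA3, LAMA5, LAMB1, LAMB3 and LAMC1, and ITGA3, ITGA6, ITGB1 and ITGB4. They are 9 of the 19491 genes in the deposited tables, were taken by name, and were chosen by their measured CPM in these same control, GPNA and BenSer libraries, so the levels and differences given for them are a description and carry no test. Total RNA was sequenced from PC-3 cells, an established human prostate cancer line, in 3 groups harvested at 48 h: an untreated control, a group given GPNA at 1 mM and a group given BenSer at 10 mM. GPNA and BenSer are inhibitors of ASCT2, the glutamine transporter encoded by SLC1A5. The study adds that BenSer appears to act beyond ASCT2 as well, since more genes differed significantly with it than with GPNA. It calls this unsurprising, because BenSer had also inhibited the amino acid transporter LAT1 in oocytes. A difference with BenSer is therefore not assigned to ASCT2 here. The inhibitors were also used at different doses, so a difference between them is one between these treatments as given and not between the compounds at a matched dose. The labels name 6 libraries, 2 per group, and do not say whether the libraries of a group came from separate cultures; further value columns of the tables, which match no label, were not used here.

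Laminins are basement membrane glycoproteins, each a trimer of an alpha, a beta and a gamma chain. Laminin-332 holds the products of LAMA3 and LAMB3 and anchors epithelial cells, whereas laminin-511 joins those of LAMA5, LAMB1 and LAMC1. Integrins are dimers of an alpha and a beta subunit at the cell surface; the alpha3-beta1, alpha6-beta1 and alpha6-beta4 dimers bind laminins, and alpha6-beta4 holds epithelial cells to laminin-332 at hemidesmosomes. Normal prostate basal cells express laminin-332 and alpha6-beta4, and loss of both is well known in prostate carcinoma.

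Levels are CPM, the reads of a gene for each 1000000 reads of its library, from libraries of 23077986 to 32178154 reads, with the BenSer libraries the deepest. Counts in the library columns of the same group were close to what sampling of reads alone gives: the chi-square divided by its degrees of freedom was 1.05 to 1.06 within groups, against 5.50 to 20.7 across groups. The columns of a group were therefore counted as 1 sample, no difference has a replicate check, and no p-value is given for a treatment. Ratios are given with exact Clopper-Pearson intervals at 95% on the merged reads, which cover counting error only. The epithelial markers KRT8, KRT18, KRT19 and EPCAM summed to 1159 to 1169 CPM in the control columns, 1154 CPM in the GPNA columns and 1242 to 1244 CPM in the BenSer columns, while the listed fibroblast markers (3 of 5) summed to at most 8.01 CPM and the 1 listed endothelial marker reached at most 4.32 CPM. Of 6 androgen-regulated luminal prostate markers, 3 were analysed, with sums of 18.9 to 20.8 CPM in the control and GPNA columns and 27.4 to 28.0 CPM in the BenSer columns, and the other 3 were not analysed here, nor were the 4 leukocyte markers. Both sums were highest with BenSer, the epithelial one through KRT19 (669 CPM in the control and 777 CPM under BenSer), while KRT8 (289 and 275 CPM) and KRT18 (108 and 91.8 CPM) were lower and EPCAM was close to the control (97.8 and 98.8 CPM); their part in the differences below was not tested; in bulk RNA, more cells of a kind and more RNA per cell cannot be told apart.

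Because no protein sequence was used here, the sequences shown are those of the start-site regions of the laminin-332 chains LAMA3 and LAMB3, the 2 genes of the group whose windows hold an AP-1 motif. RefSeq promoter windows of 300 bases (GRCh38.p14) were found for 7 of the 9 genes, in 11 windows. ITGA3 and ITGB4 had no window and were not searched for motifs. Each window matched a single place on its chromosome in GRCh37, the build used for all positions here. Below are the 250 bases before the start site, with the AP-1 motif (TGACTCA, or TGAGTCA on the other strand) in capitals.
LAMA3, chr18:21452734-21452983, plus strand: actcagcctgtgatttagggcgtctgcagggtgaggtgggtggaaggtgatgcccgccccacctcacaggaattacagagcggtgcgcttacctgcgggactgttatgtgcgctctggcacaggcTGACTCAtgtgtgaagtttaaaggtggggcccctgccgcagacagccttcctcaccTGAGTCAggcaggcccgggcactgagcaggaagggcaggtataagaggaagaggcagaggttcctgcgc
LAMB3, chr1:209824720-209824969, minus strand: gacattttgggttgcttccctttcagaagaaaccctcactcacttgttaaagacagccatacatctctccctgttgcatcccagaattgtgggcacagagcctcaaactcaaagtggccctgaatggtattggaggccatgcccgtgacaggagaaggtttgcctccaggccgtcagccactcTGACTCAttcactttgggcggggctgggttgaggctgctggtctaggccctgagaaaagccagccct

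The LAMA3 window holds 2 AP-1 motifs, which begin 125 and 69 bases before the start site, and the LAMB3 window holds 1, which begins 67 bases before it. No AP-1 motif was found in the other 9 windows, which include the other LAMB3 start sites, and 4.95% of the 35116 promoter windows in the table hold one. The GC box (GGGCGG, or CCGCCC on the other strand) was in 10 of the 11 windows, among them windows of all 7 genes, and in 45.0% of all windows. This box does not overlap the AP-1 motif. The 250 bases shown for LAMA3 end 1 base before the start of the shorter protein-coding transcript LAMA3-201, 183567 bases inside the gene and within an intron of the longer transcript, and those shown for LAMB3 lie at transcript LAMB3-204, 1051 bases from the first start of the gene. A motif match is a description of these letters, and nothing in these libraries measured binding there. The reads are summed per gene, so transcripts of the longer and the shorter LAMA3 forms cannot be told apart.

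The question of this series was which genes differ in PC-3 cells given these inhibitors of ASCT2. With BenSer, the mean ratio to the control was highest for LAMA3 (2.13) and ITGB4 (1.59) among the 9 genes, followed by LAMB3 (1.28), ITGA3 (1.24) and LAMB1 (1.22). ITGB1 and LAMC1 were 12.8% and 9.14% above the control, ITGA6 was within counting error of it, and LAMA5 was below it. With GPNA, LAMA3 and ITGB4 had the highest ratios of the 9 genes (1.30 for both), and LAMB1 and LAMC1 were below the control.

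**Figure D1:**
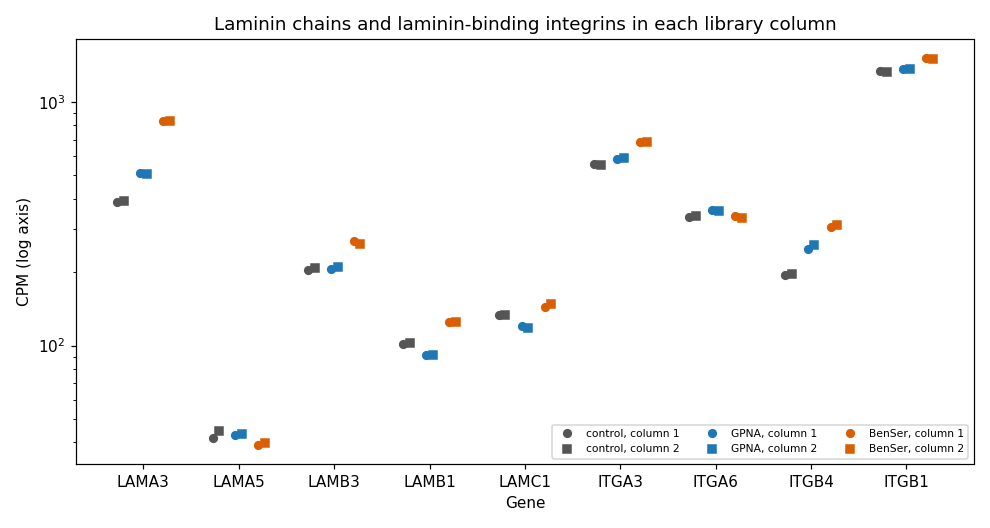
CPM (log axis) of each gene in both library columns of the control (grey), GPNA (blue) and BenSer (orange) groups, circles for column 1 and squares for column 2. LAMA3 steps from about 391 CPM in the control to 509 with GPNA and 834 with BenSer, while ITGA6 stays between 333 and 360 CPM.

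LAMA3 (ENSG00000053747, chromosome 18, 21269417 to 21536186, plus strand) encodes the alpha chain of laminin-332. Its level was 389.9 and 392.6 CPM in the control columns, 510.9 and 507.3 CPM with GPNA and 836.9 and 831.7 CPM with BenSer. The groups did not overlap, and the BenSer columns were the highest. The ratio of mean CPM to the control was 1.30 for GPNA (1.28 to 1.33, the 95% interval here and below) and 2.13 for BenSer (2.10 to 2.17), and BenSer against GPNA gave 1.64 (1.61 to 1.66). As a log2 difference of mean CPM plus 1, LAMA3 ranked 63 from the top of 18976 genes with BenSer against the control, 106 of 19056 with BenSer against GPNA and 311 of 18828 with GPNA against the control.

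LAMA5 (ENSG00000130702, chromosome 20, 60883011 to 60942368, minus strand), the alpha chain of laminin-511, was the member with the fewest reads. It had 41.8 and 44.6 CPM in control cells, 42.9 and 43.2 CPM with GPNA and 39.2 and 39.7 CPM with BenSer. The GPNA values lay between those of the control, and the BenSer values lay below both other groups. The ratio was 0.996 with GPNA (0.937 to 1.06), a difference not detectable at this depth. With BenSer it was 0.913 (0.861 to 0.969). Neither limma, edgeR nor DESeq2, which enter the columns as 2 samples, called LAMA5 with BenSer against the control at an adjusted p under 0.05. The ratio of LAMA3 to LAMA5 per kilobase was 8.94 in control cells, 11.7 under GPNA and 20.9 under BenSer.

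LAMB3 (ENSG00000196878, chromosome 1, 209788215 to 209825770, minus strand) encodes the beta chain of laminin-332. Its columns read 203.3 and 208.5 CPM in control cells, 205.7 and 209.1 CPM with GPNA and 268.2 and 260.7 CPM with BenSer. Only BenSer stood apart from the control. Its ratio was 1.28 (1.253 to 1.317), against 1.01 with GPNA (0.980 to 1.04), and BenSer against GPNA gave 1.28 (1.24 to 1.31). Against LAMB3, the level of LAMA3 per kilobase of merged exons was 0.610 in control cells, 0.787 under GPNA and 1.01 under BenSer.

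LAMB1 (ENSG00000091136, chromosome 7, 107564244 to 107643658, minus strand) and LAMC1 (ENSG00000135862, chromosome 1, 182992555 to 183114727, plus strand) are the beta and gamma chains of laminin-511 and of several other laminins. LAMB1 had 101.6 and 102.8 CPM in control cells, 91.6 and 91.7 CPM with GPNA and 124.4 and 124.6 CPM with BenSer. LAMC1 had 133.5 and 133.7 CPM in control cells, 119.9 and 117.7 CPM with GPNA and 143.9 and 147.7 CPM with BenSer. For both chains the GPNA columns were the lowest and the BenSer columns the highest. The ratio of LAMB1 was 0.897 with GPNA (0.861 to 0.934) and 1.22 with BenSer (1.17 to 1.26), and that of LAMC1 was 0.889 (0.858 to 0.922) and 1.09 (1.06 to 1.13). BenSer against GPNA, in which the control takes no part, gave 1.36 for LAMB1 (1.31 to 1.41) and 1.23 for LAMC1 (1.19 to 1.27).

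ITGB4 (ENSG00000132470, chromosome 17, 73717408 to 73753899, plus strand) pairs only with the alpha6 subunit and has a long cytoplasmic tail that binds the hemidesmosome protein plectin. It had 193.9 and 196.3 CPM in control cells, 248.0 and 257.7 CPM with GPNA and 307.1 and 313.7 CPM with BenSer. The groups did not overlap, with the control lowest and BenSer highest. The ratio was 1.30 with GPNA (1.26 to 1.33) and 1.59 with BenSer (1.55 to 1.63), and BenSer against GPNA gave 1.23 (1.20 to 1.26).

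ITGA6 (ENSG00000091409, chromosome 2, 173292082 to 173371187, plus strand), the partner of ITGB4 that also pairs with ITGB1, had 336.7 and 341.7 CPM in control cells, 360.2 and 356.7 CPM with GPNA and 339.1 and 333.4 CPM with BenSer. The GPNA columns were above the others, and the BenSer and control columns overlapped. The ratio was 1.06 with GPNA (1.03 to 1.08) and 0.991 with BenSer (0.971 to 1.01). The level of ITGA6 over that of ITGB4 per kilobase was 1.76 in control cells, 1.44 under GPNA and 1.10 under BenSer.

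ITGA3 (ENSG00000005884, chromosome 17, 48133332 to 48167845, plus strand) pairs with ITGB1 to form a receptor of laminin-332 and laminin-511. It had 555.6 and 551.4 CPM in control cells, 585.5 and 587.1 CPM with GPNA and 686.0 and 685.5 CPM with BenSer. Its ratio was 1.06 with GPNA (1.04 to 1.08) and 1.24 with BenSer (1.22 to 1.26). Control, GPNA and BenSer stood in that order from low to high, without overlap.

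ITGB1 (ENSG00000150093, chromosome 10, 33176201 to 33294720, minus strand), the beta subunit shared by many integrins, had the highest CPM of the 9 genes. It had 1340.2 and 1322.9 CPM in control cells, 1369.5 and 1368.5 CPM with GPNA and 1511 and 1494 CPM with BenSer. The ratio was 1.03 with GPNA (1.02 to 1.04) and 1.13 with BenSer (1.12 to 1.14). The columns of the groups did not overlap, although the GPNA columns were only 2.82% above the control on average.

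**Figure D2:**
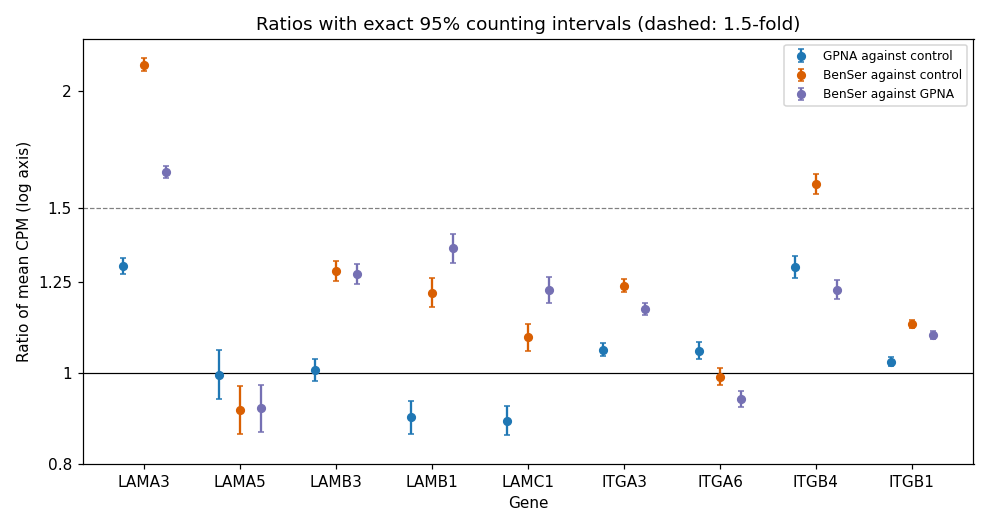
Ratio of mean CPM (log axis) of each gene for GPNA against control, BenSer against control and BenSer against GPNA; bars are exact 95% intervals on the merged reads, the solid line is no difference and the dashed line 1.5-fold. LAMA3 and ITGB4 lie above 1.5 for BenSer against control, and LAMB1 and LAMC1 lie below 1 for GPNA against control only.

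All 9 genes passed the minimum of 5 mean reads in either group, as did 18828 to 19056 genes in all, depending on the comparison. With BenSer, 2 of the 9 (LAMA3 and ITGB4) were at least 1.5-fold above the control, a threshold that 1.96% of all tested genes passed upwards and 1.58% downwards, and none was 1.5-fold lower. Their median log2 difference was 0.28, against -0.028 over all tested genes. For BenSer against GPNA, LAMA3 alone passed, with 1.05% of all genes higher by that fold and 0.813% lower, and the median was 0.29 against -0.0093 over all genes. With GPNA against the control none passed in either direction, where 0.34% of all genes were higher and 0.0637% lower. The median was 0.040 against -0.028 over all genes, and 0.080 against 0.0022 with TMM scaling. All 9 genes averaged over 30 CPM. With BenSer against the control, 3990 tested genes averaged at least 30 CPM. Of these, 101 were 1.5-fold higher (2.53%) and 107 lower, with a median of -0.053. For BenSer against GPNA 53 (1.35%) and 35 of 3914 such genes passed, with a median of 0.011. With GPNA against the control 17 (0.431%) and 1 of 3941 passed, with a median of -0.062. The GPNA and BenSer values share the control libraries, and since the genes were chosen with these values known, no enrichment is read from the counts.

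Over library columns, 7 of the 9 genes had both BenSer columns above both control columns (28.5% of all genes) and 1 had both below (37.5%). With GPNA these counts were 5 above (22.4%) and 2 below (34.4%), and for BenSer against GPNA they were 7 above (31.7%) and 2 below (33.6%). The columns of a group count as 1 sample, so such separation depends on the number of reads of a gene. The shares cover genes down to a mean of 5 reads, while LAMA5, with the fewest of the 9, had 2001 merged reads in the control. They are therefore not a like background, and nothing is read from these counts. Summed over the 5 laminin chains, the level was 876 CPM in control cells, 970.0 CPM under GPNA and 1408 CPM under BenSer. The 4 integrin subunits summed to 2419 CPM in control cells, 2567 CPM with GPNA and 2835 CPM with BenSer. In the laminins the rise in the sum with BenSer was mainly in LAMA3, which went from 391 to 834 CPM.

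**Figure D3:**
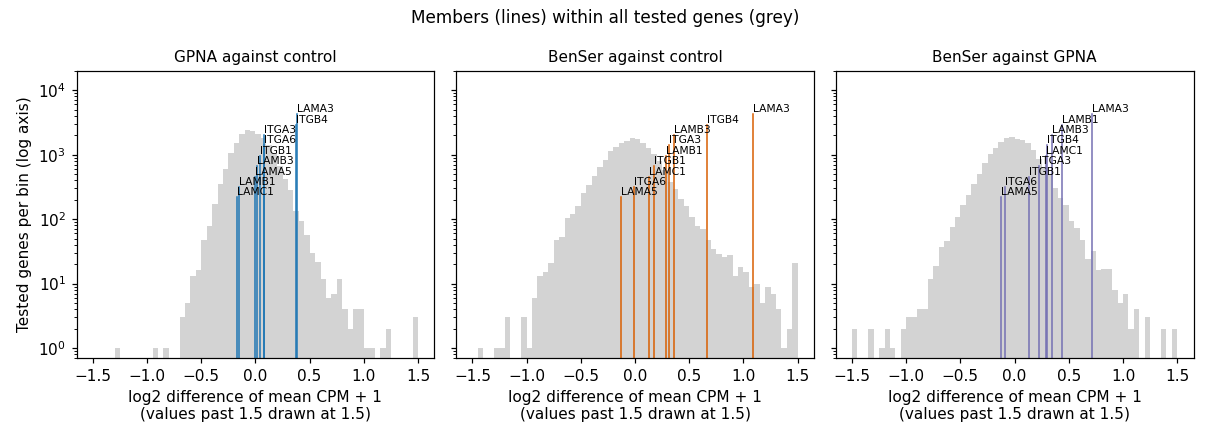
Number of tested genes (log axis) by log2 difference of mean CPM plus 1 in 3 comparisons (grey), with the 9 genes as labelled lines whose height has no meaning. LAMA3 lies farthest right of the 9 in each comparison, at 0.38, 1.09 and 0.71, and most of the others lie within the body of the grey distribution.

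Levels of different genes were compared per kilobase, since longer transcripts collect more reads. Per kilobase of merged exons, the order in the control was ITGB1 (91.4 CPM per kilobase), ITGA3 (56.5), ITGA6 (50.8), LAMB3 (44.3), ITGB4 (28.9), LAMA3 (27.0), LAMC1 (15.8), LAMB1 (5.50) and LAMA5 (3.02). The GPNA group kept that order. With BenSer, LAMA3 moved up to 57.6 CPM per kilobase, next to LAMB3 at 56.9, and the columns of these neighbours overlapped; all other neighbours in the 3 orders had columns that did not overlap.

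The order of some neighbours depends on the length used. With the length of the MANE Select transcript, a single reference transcript per gene, LAMB1 was at 18.1 CPM per kilobase in the control and above LAMC1 at 16.8, because its merged exons (18592 bases) are much longer than that transcript (5650 bases). On this scale LAMA3 was at 36.7 in the control, above ITGB4 at 33.1, and at 78.3 with BenSer, above LAMB3 at 65.9. With the shorter transcript LAMA3-201 (5618 bases), the LAMA3 value would be 69.6 CPM per kilobase in control cells, 90.6 under GPNA and 148.5 under BenSer. ITGB1 was the highest and LAMA5 the lowest of the 9 genes in every group with merged exons and with MANE Select lengths.

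**Figure D4:**
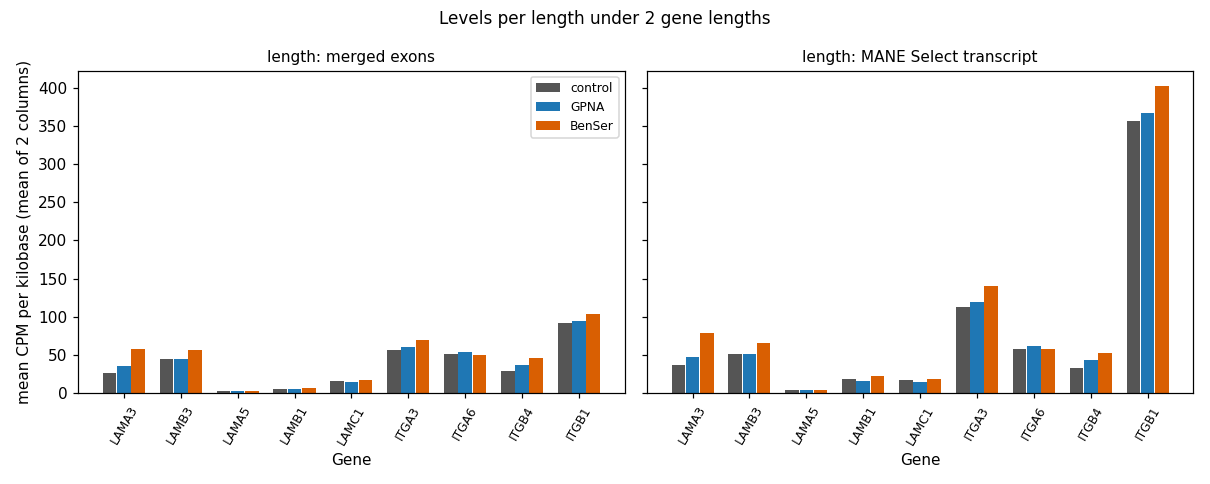
Mean CPM per kilobase (mean of both columns; bars start at 0, no error shown) of the 9 genes in each group, with the length of merged exons (left) or of the MANE Select transcript (right). ITGB1 is highest on both scales, at 91.4 and 356.5 in the control, and LAMA5 lowest, at 3.02 and 3.78.

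Of 6 other laminin chain genes listed, 5 were analysed and passed the read minimum, and 1 of them, LAMA4, was at least 1.5-fold higher with BenSer than in the control, with none lower. By that fold, 1.96% of all tested genes were higher with BenSer and 1.58% lower. LAMA4, the alpha chain of laminins of vessels and muscle, had 10.4 and 11.2 CPM in control cells, 12.4 and 12.3 CPM with GPNA and 20.4 and 21.3 CPM with BenSer. Its ratio with BenSer was 1.93 (1.74 to 2.14). LAMA4 also passed 1.5-fold for BenSer against GPNA (ratio 1.69, 1.53 to 1.86). In that comparison 1.05% of all tested genes were higher by that fold and 0.813% lower. LAMB2, a beta chain of laminins of muscle and kidney and the highest of the list per kilobase, averaged 90.7 CPM in control cells, 93.1 CPM under GPNA and 115.5 CPM under BenSer (ratio 1.27 with BenSer, 1.23 to 1.32). The other 3 chains, LAMA1, LAMA2 and LAMC3, stayed at or below 1.73 CPM in every group mean. Over the 5 chains the log2 differences had a median of -0.17 for GPNA and 0.070 for BenSer, both of them the value of LAMA1, which had few reads. The former was -0.050 without control replicate 1, -0.38 with a pseudocount of 0.1 and -0.041 with one of 5. The latter was 0.19 without control replicate 1, -0.042 without control replicate 2 and -0.0036 over the chains with at least 1 CPM. Of 4 other laminin receptors none passed 1.5-fold in any comparison; the highest per kilobase was RPSA, a ribosomal protein also known as the laminin receptor, at 401 CPM in control cells against 270.5 CPM in BenSer-treated cells (ratio 0.674, 0.660 to 0.688). RPSA has processed copies in the genome that can share its reads, so its values are uncertain.

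Other integrin subunits were analysed for 14 of 21 genes, and 3 were at least 1.5-fold higher with BenSer than in the control, none lower. Of all tested genes, 1.96% were higher by that fold and 1.58% lower, and the list was chosen with earlier results known. The median log2 difference of the list with BenSer was 0.24 (0.36 with a pseudocount of 0.1 and 0.12 with one of 5). ITGB6, which pairs with alphaV, had 9.04 and 9.32 CPM in control cells, 14.3 and 13.8 CPM with GPNA and 16.9 and 17.9 CPM with BenSer, a ratio of 1.90 with BenSer (1.69 to 2.13) and 1.53 with GPNA (1.36 to 1.73); on the scale of log2 of CPM plus 1 the latter difference is 0.56 and under 1.5-fold. ITGA2, the collagen-binding alpha2 subunit and the highest of the list per kilobase, went from 186 CPM in the control to 203 CPM with GPNA and 295 CPM with BenSer (ratio 1.59, 1.55 to 1.63). ITGA1, its close relative, had 29.5 CPM in control cells, 35.6 CPM with GPNA and 46.8 CPM with BenSer (ratio 1.59, 1.49 to 1.70). ITGA4, the alpha4 subunit, was chosen after its values were seen: its plain ratio with BenSer was 0.561 (0.407 to 0.770), from 2.03 CPM in the control to 1.14 CPM, but on the scale with 1 CPM added it was under 1.5-fold lower. With GPNA none of the 14 passed 1.5-fold, and the median was 0.049, or 0.11 without control replicate 1, 0.10 without GPNA replicate 2 and 0.026 without control replicate 2.

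Among 6 hemidesmosome and anchoring genes, COL17A1 alone passed 1.5-fold, higher with BenSer than in the control, as were 1.96% of all tested genes. This transmembrane collagen of hemidesmosomes had 4.56 and 4.33 CPM in control cells, 5.47 and 6.29 CPM with GPNA and 7.77 and 8.05 CPM with BenSer, a ratio of 1.78 with BenSer (1.51 to 2.10) from 206 control reads. PLEC, which encodes the plectin that binds ITGB4 and was the highest of the list per kilobase, had 538 CPM in control cells, 518 CPM with GPNA and 479 CPM with BenSer, a ratio of 0.891 with BenSer (0.876 to 0.906). The medians of the list were -0.0051 with GPNA (0.034 with TMM scaling and -0.014 to 0.022 without single columns) and 0.060 with BenSer (0.11 with TMM scaling).

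Of 14 other basement membrane genes 13 were analysed, and none passed 1.5-fold in any comparison. Their median was 0.056 for GPNA (0.037 without GPNA replicate 1) and 0.11 for BenSer (0.072 to 0.19 without single columns), and NTN4, a secreted netrin with a laminin-like domain and the highest of the list per kilobase, had a ratio of 1.32 with BenSer (1.24 to 1.40). None of the 17 adaptor and focal adhesion genes passed either, with medians of -0.089 with GPNA and -0.029 with BenSer (0.016 with TMM scaling). With GPNA, 14 of the 17 were lower than the control, while 56.7% of all tested genes were not above it. The GPNA median was -0.050 with TMM scaling, and the BenSer median was 0.0092 without BenSer replicate 2. Vinculin (VCL), the highest of these per kilobase, had a ratio of 0.924 with BenSer (0.910 to 0.938).

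Proteases that cleave laminin chains were analysed for 4 of 7 genes, all 4 of which had a positive difference with BenSer (median 0.28 on the log2 scale), as had 44.6% of all tested genes, and none of which passed 1.5-fold on that scale. MMP7, also picked out after its values were seen, had a plain ratio of 1.67 (0.843 to 3.48) from 13 control and 30 BenSer reads. MMP14, a membrane-bound metalloprotease and the highest of these per kilobase, had 90.8 CPM in control cells, 93.0 CPM with GPNA and 113 CPM with BenSer (ratio 1.24, 1.19 to 1.29). TLL1, a tolloid-family protease, was at 11.1 CPM in control cells, 9.50 CPM with GPNA and 14.9 CPM with BenSer, and passed 1.5-fold for BenSer against GPNA (ratio 1.56, 1.40 to 1.75). In that comparison 1.05% of all tested genes were higher by that fold and 0.813% lower.

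Adding 1 CPM understates the differences of genes with few reads. By the plain ratio of mean CPM, 3 further genes of these lists were at least 1.5-fold higher with BenSer than in the control (ITGB3, COL4A3 and MMP7) and 4 lower (LAMA2, LAMC3, ITGA4 and TNS1), all at or below 2.03 CPM. With GPNA, 4 were higher by that ratio (COL7A1, ITGA2B, ITGB3 and ITGB6) and 1 lower (LAMA1), and for BenSer against GPNA 1 was higher (LAMA1) and 2 lower (ITGA2B and ITGA4).

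**Figure D5:**
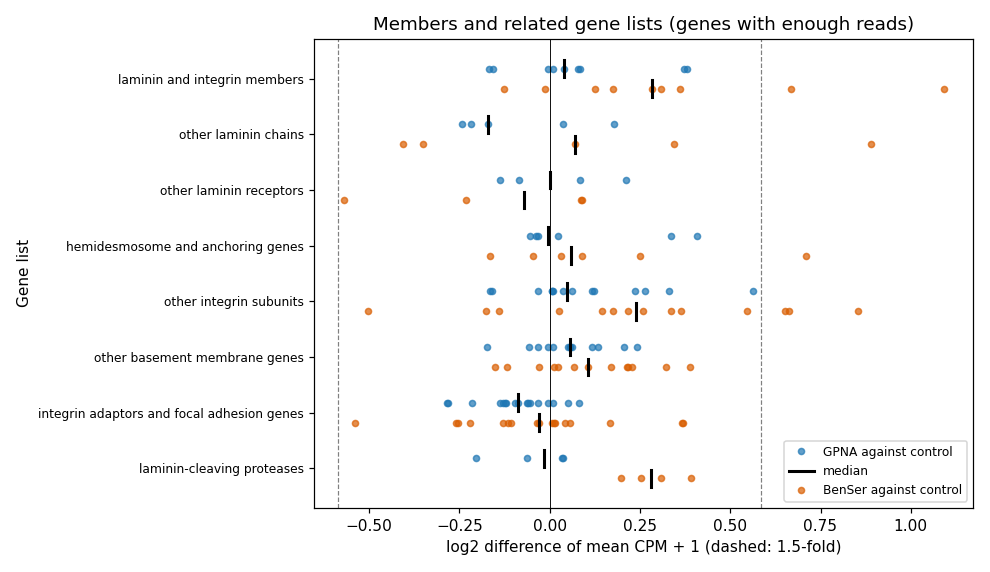
log2 difference of mean CPM plus 1 for the 9 genes and for the genes of each related list with enough reads, GPNA against control in blue and BenSer against control in orange, with medians as black bars and 1.5-fold as dashed lines. The medians of the 9 genes are 0.040 and 0.28, and in the related lists the values past 1.5-fold are those of LAMA4, COL17A1, ITGA1, ITGA2 and ITGB6 with BenSer.

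The pattern of LAMA3, taken as its pair of log2 differences with GPNA (0.38) and BenSer (1.09) from the control, was closest to that of ELF3, an epithelial transcription factor, among 8261 other genes with at least 10 CPM in a group. ELF3 had differences of 0.37 and 1.08 (14.4, 19.0 and 31.5 CPM in the control, GPNA and BenSer groups), a distance of 0.018. TAP1, a peptide transporter of antigen presentation, followed at a distance of 0.085, the nuclear RNA MALAT1 at 0.098, SLITRK6 at 0.11 and TMEM45B at 0.13. Each distance rests on 3 group means, and the genes share the same libraries.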

How the data were processed

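The authors prepared stranded total RNA libraries, used TopHat2 to place trimmed read pairs on hg19/GRCh37.p13, summed the reads of each gene, and deposited 2 tables of 19491 genes, in which the values are CPM, each gene's reads divided by the library total. The submitters' processing notes also name Bowtie2, HTSeq (0.6.2p2) and DESeq. The authors' fold changes, p-values and false discovery rates were not used. Columns 1 and 2 of each group carry the labelled names; 8 of 16 value-column entries could not be mapped and were not used, although the study's methods describe 4 replicates per group. All values (100%) were whole reads within 0.01 of a read, so reads and totals were recovered.

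The columns of a group were merged into 1 sample. Differences are log2 of mean CPM plus 1 where either group averaged 5 or more reads, called past 1.5-fold. Gene positions and lengths came from GENCODE v44 lifted to GRCh37, which is later than the authors' annotation. The 9 genes and the related lists were chosen with earlier results of these data known. Named from the lists were genes past 1.5-fold in any comparison with at least 1 CPM in one of its groups, and the highest per kilobase (some items are not reported here); likeness to LAMA3 is the Euclidean distance of the log2 differences. Alternatives were other pseudocounts, filters, scalings, folds, single columns left out, transcript lengths (added after seeing the data), and limma (3.58.1), edgeR (4.0.16) and DESeq2 (1.42.0) in R 4.3.3, tested on simulated data. All else was done in Python (3.11.15), using pandas (2.3.3), numpy (2.4.6), scipy (1.17.1) and, for plots, matplotlib (3.10.9).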

Additional observations from a re-analysis of the deposited data

How the results depend on the processing

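The direction of LAMA3 and ITGB4 held in all 3 comparisons under every pseudocount, filter and scaling tried and without each single column. Of these, only the scalings could in principle reverse it. Their factors ran from 0.986 to 1.026, too narrow a span to reverse ratios of at least 1.23. That the direction held is therefore no separate check. A pseudocount or filter cannot change the sign of a difference, and for both genes the columns of the groups did not overlap. The values of the 9 genes moved by at most 0.048 (log2); the sign changed in 7 of 270 recomputed values, those of LAMA5 and LAMB3 with GPNA and of ITGA6 with BenSer (-0.012, and 0.035 with TMM scaling). Of 210 recomputed medians of the related lists 22 changed sign, most of them medians close to 0. TMM scaling moved the share of higher among the genes past 1.5-fold with BenSer from 55.3% to 66.9%.

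Counts over all genes are given as higher and lower for GPNA against control, BenSer against control and BenSer against GPNA, in that order; as reported they were 64 and 12, 371 and 300, and 201 and 155. A pseudocount of 0.1 gave 879 and 652, 1205 and 1397, and 930 and 1243; of 5, 29 and 2, 171 and 102, and 79 and 38. A threshold of 25% gave 539 and 515, 1396 and 1961, and 1308 and 1349, and 2-fold gave 8 and 1, 83 and 9, and 20 and 10. Without single columns the counts were 74 to 90 and 23 to 27, 376 to 412 and 320 to 349, and 212 to 227 and 176 to 190, the lower count with GPNA moving from 12 to over 1.5 times that without any 1 of the 4 columns, with 0, 2 and 1 of the 9 genes higher and 0 lower. Of the 9 genes, the 25% threshold passed 2 (GPNA) and 3 (BenSer against GPNA) as higher; 2-fold left 1 with BenSer and 0 against GPNA.

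Tests at an adjusted p under 0.05 that enter the columns as 2 samples compare these libraries, not the treatments. limma called 2 and 0, 1836 and 2657, and 1824 and 1827 genes, edgeR 1300 and 1553, 3472 and 3331, and 3399 and 3037, and DESeq2 445 and 534, 2016 and 1939, and 1941 and 1567. In either direction, limma called 0.011%, 23.7% and 19.2% of the tested genes and edgeR 15.2%, 35.9% and 33.8%. DESeq2 called 9.72%, 29.4% and 26.7% of the 10067, 13457 and 13145 genes counted for it. Of the 9 genes, limma called 0, 5 and 6 higher, and edgeR and DESeq2 5, 7 and 7. Lower were 2 (edgeR) or 1 (DESeq2) with GPNA and 2 or 1 for BenSer against GPNA. edgeR with a replicate block gave 1004 and 1208, 3176 and 3013, and 3346 and 2980 genes (11.7%, 32.6% and 33.2% in either direction). Of the 9 genes it called 5, 7 and 7 higher and 2, 0 and 2 lower. The replicate numbers do not pair the samples by label, and the deviations of same-numbered columns correlated at 0.043 to 0.066 between groups.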
